A study of Caenorhabditis elegans with 12 samples.

Results

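Gravid adult Caenorhabditis elegans that lack normal set-25 function and were grown at 20 °C were set against wild-type worms grown at 25 °C. The question is which genes and repeats reach the same transcript level in both states and which tell the states apart. The comparison was made up of the 3 libraries labelled as set-25 mutants and the 3 libraries labelled as the 25 °C generation (F0), 6 of the 12 libraries of the series. The mutants were of strain MT17463, which carries the set-25(n5021) allele, and were collected 72 to 76 h after eggs were plated at 20 °C. The F0 worms were N2 wild type, kept at 25 °C for 5 generations and collected after 54 to 56 h. A control group of 3 N2 libraries kept at 20 °C gave the level beside which both states are set. The labels used here give no hours of growth for the controls. The remaining group in the fit was F3, 3 libraries of N2 descendants returned to 20 °C after 5 generations at 25 °C. They were taken 3 generations after the shift and collected at 72 to 76 h. Each replicate came from 3 plates of whole worms and was read as ribosomal-RNA-depleted, strand-specific total RNA. The mutants and F0 differ in genotype, temperature, hours of growth and library numbering at the same time, and the growth notes name no wild type raised beside the mutants, so these cannot be told apart in any difference given here.

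SET-25 is a methyltransferase that places methyl groups on lysine 9 of histone H3, a mark of silent chromatin. It acts beside MET-2, which supplies the lower methylation states, and in worms the mark covers transposons, simple repeats and tissue-specific genes on chromosome arms. Growth at a higher temperature acts through other routes as well, among them the heat shock factor HSF-1 and its chaperone genes, membrane lipid desaturation and the rate of development.

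Total counts were 22682534, 26289581 and 10678819 in the set-25 libraries and 32520845 to 34192047 in the F0 libraries. Ribosomal RNA took 11.7, 4.01 and 26.3% of the counts of set-25 libraries 1, 2 and 3, against 3.81 to 3.89% in F0. Libraries of the mutants also differed more among themselves, with a chi-square per degree of freedom of 62 to 239 between pairs, against 5.23 to 5.37 between F0 pairs. Yolk, oocyte, germ cell and embryo markers were detected in all 12 libraries. For example, the oocyte surface gene egg-1 lay at 585 to 622 CPM (counts scaled to library size) in set-25 and 542 to 557 CPM in F0. The markers differed both ways. In set-25 and F0 gld-1 was at 443.3 to 473.5 and 342.5 to 367.1 CPM, and pgl-1 at 391.5 to 418.9 and 459.6 to 502.8 CPM. The germ cell marker glp-1 overlapped. Of the embryo markers, pie-1 was lower in the mutants, at 65.57 to 72.38 CPM in set-25 and 75.16 to 83.72 CPM in F0. The embryo markers mex-5 and pos-1 were higher. In set-25 and F0 mex-5 was at 472 to 489.2 and 326.7 to 340.3 CPM, and pos-1 at 578.4 to 642.2 and 538.8 to 542.1 CPM. The RNA is from whole worms, so that fewer cells of a type and less RNA per cell cannot be told apart. Each library pools the worms of 3 plates, and p-values measure the spread between such pools.

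The set-25 transcript itself did not separate the states. It was at 59.1, 59.3 and 50.7 CPM in the mutants and at 53.1, 50.9 and 55.6 CPM in F0, against 65.9 to 69.7 CPM in the controls. The log2 fold change of set-25 over F0 was 0.10 (SE 0.07, 90% interval -0.03 to 0.23). What the n5021 allele removes is not stated by the labels, and a check of genotype by transcript level was therefore not possible. The met-2 transcript was at 223 to 229 CPM in the mutants and 192 to 197 CPM in F0, a small difference that passed the test (0.21, SE 0.04, adjusted p 0.000219).

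Most genes were at or near a common level, and a minority stood far apart. Of 14466 genes tested, 2452 were called higher in set-25 than in F0 (17.0%) and 2952 lower (20.4%), at a Benjamini-Hochberg adjusted p under 0.05 in edgeR's quasi-likelihood test. Among those, 273 were at least 2-fold higher (1.89%) and 985 at least 2-fold lower (6.81%). A gene was taken to be at the same level where the 90% interval of its fold change lay inside 1.5-fold in either direction. This held for 8422 genes (58.2%), of which 2606 were also called, with a small difference (18.0%). For 3246 genes (22.4%) the libraries showed neither a difference nor a common level. With set-25 library 2 alone in its group, the mutant library without raised ribosomal RNA, 1473 genes were higher and 1860 lower. Over all genes the median log2 fold change was -0.02. The groups did not overlap for 51.2% of genes. Set against the 20 °C controls instead, set-25 had 1287 genes higher and 1178 lower (8.90 and 8.14%). F0 had 2409 genes higher (16.7%) and 1743 lower, 28.7% in all. Both of these comparisons use the same control libraries.

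**Figure D1:**
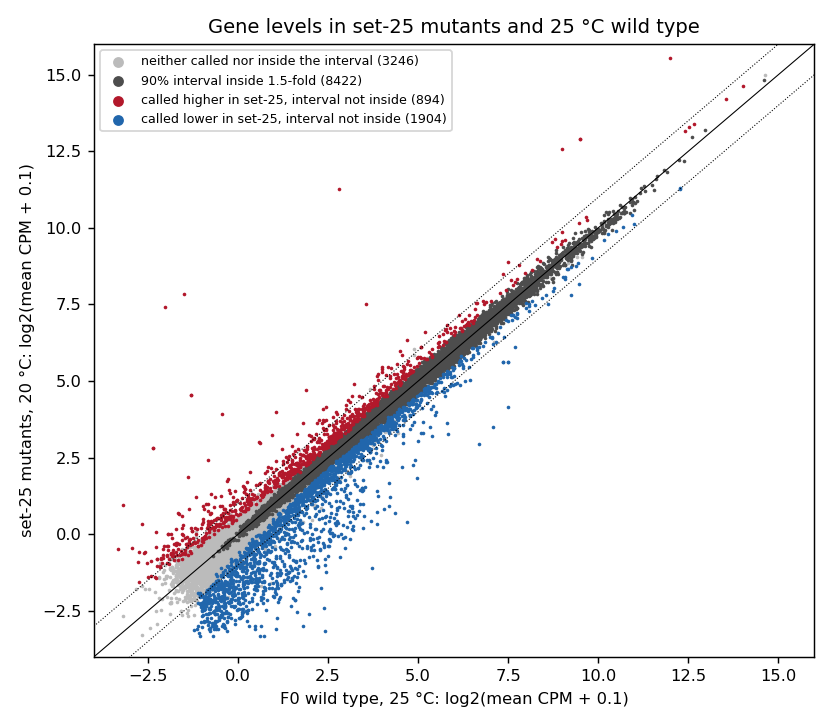
Mean level of each of 14466 genes in set-25 mutants (vertical axis) against F0 wild type (horizontal axis), both as log2(mean CPM + 0.1) over 3 libraries, with the line of equality and dotted lines at 2-fold. The 8422 genes whose interval lay inside 1.5-fold follow the diagonal, and more genes lie beyond the lower dotted line (985 called) than beyond the upper (273 called).

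Few genes reached the same level in both states at a distance from the controls. Only 13 genes had an interval inside 1.5-fold while both groups were at least 2-fold above the controls without overlapping them, and 3 genes met the same conditions below the controls. Among the 13, 4 were genes of the MATH and BTB domain family, whose proteins include substrate adaptors of ubiquitin ligases. The family made up 79 of the 14466 genes tested. These 4 genes lie on chromosome II, as do most of the 13, and that chromosome held 2476 of the genes tested. Family and chromosome cannot be told apart in so small a set. Transcripts of bath-13 were at 3.93, 4.11 and 4.89 CPM in set-25 and at 3.39, 3.51 and 4.96 CPM in F0, against 0.524, 0.869 and 0.669 CPM in the controls. The set-25 and F0 libraries overlapped and all 6 lay above the controls (log2 set-25 over F0 0.10, SE 0.19, interval -0.23 to 0.42).

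The annotated pseudogene bath-12 was at 14.7, 14.7 and 12.3 CPM in set-25 and 14.2, 13.8 and 14.3 CPM in F0, against 5.41 to 5.98 CPM in the controls. Its log2 fold change was 0.00 (SE 0.08, interval -0.14 to 0.15), and it was 1.31 over control (SE 0.09) in each state. Transcripts of math-24 were at 4.16, 3.17 and 4.47 CPM in set-25, 3.95, 3.74 and 3.9 CPM in F0 and 1.25 to 1.47 CPM in the controls. Those of math-14 were at 4.24, 4.19 and 5.54 CPM in set-25, 4.24, 6.23 and 4.95 CPM in F0 and 1.03 to 1.9 CPM in the controls. That both states lay above the controls by a like distance in these 4 genes follows from the rule that chose them. The family as a whole was not at one level more often than other genes. Of 79 tested members 12 were called higher in set-25 than in F0 and 13 lower (31.6% called, against 37.4% of all genes). The same level held for 45 (57%), close to the 58.2% of all genes. The count of lower members was 6 without set-25 replicate 1 or F0 replicate 1, and 7 without F0 replicate 2 or 3 and in DESeq2. Against the controls, 20 members were higher and 1 lower in set-25 (median log2 fold change 0.17). In F0, 30 were higher and 8 lower (median 0.26). Of all genes, 8.90% were higher than the controls in set-25 and 16.7% in F0.

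A member that was up in both states but not to one level was math-45, at 3.01, 2.48 and 2.09 CPM in set-25, 1.01, 1.07 and 0.984 CPM in F0 and 0.28 to 0.284 CPM in the controls. All set-25 libraries lay above all F0 libraries, and these above the controls (set-25 over F0 1.34, SE 0.21, adjusted p 7.01e-05).

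The other named genes at one raised level were lips-14, an annotated pseudogene of the lipase class, and dhs-2, a short-chain dehydrogenase gene. The set-25 libraries held 1.71 to 2.71 CPM of lips-14, the F0 libraries 1.71 to 2.72 CPM and the controls 0.757 to 0.965 CPM. For dhs-2 the values were 3.53 to 5.66 CPM in set-25, 3.29 to 5.56 CPM in F0 and 1.81 to 2.45 CPM in the controls. The remaining 7 of the 13 genes were C08F1.10, C52E2.4, F01D5.3, F23F12.13, fbxb-90, H02F09.3 and W02D7.4, which fell outside the naming rule and are listed because the set is small. C52E2.4 stood furthest from the controls, at 2.76 (SE 0.35) over control in set-25 and 2.67 (SE 0.33) in F0 on the log2 scale. The interval of bath-12 and of W02D7.4 stayed inside 1.5-fold in all 14 alternatives. That of bath-13 left it without F0 replicate 3 (0.30), that of math-24 with set-25 library 2 alone in its group (-0.27), and that of math-14 without set-25 replicate 3 (-0.28) and without F0 replicate 1 (-0.31) or 3 (-0.21). That of lips-14 left it without set-25 replicate 2 (0.21) or F0 replicate 1 (0.22), and that of dhs-2 without set-25 replicate 2 (0.27) or F0 replicate 2 (0.28). With set-25 library 2 alone the last 3 also left it. Of the remaining genes, H02F09.3 left it in 12 alternatives, and C08F1.10, C52E2.4, F01D5.3, F23F12.13 and fbxb-90 in 1 to 9, with no call in any.

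Below the controls, the C-type lectin gene clec-70, of a class of secreted sugar-binding proteins, was at 0.964, 1.06 and 1.29 CPM in set-25 and 1.24, 0.999 and 1.28 CPM in F0. The controls held 4.18, 3.46 and 4.51 CPM, above all 6 libraries, and the log2 fold change of set-25 over F0 was -0.16 (SE 0.22, interval -0.54 to 0.22). That interval left 1.5-fold in 6 of 14 alternatives, among them the fits without set-25 replicate 2 (-0.17) or 3 (-0.20) and without F0 replicate 2 (-0.25). The other members were B0205.13, at 3.26 to 4.55 CPM in set-25, 2.4 to 4.88 CPM in F0 and 12.3 to 13.5 CPM in the controls, and F59D6.3, at 3.89 to 5.05 CPM in set-25, 2.48 to 4.31 CPM in F0 and 10.1 to 11.5 CPM in the controls. Both left it in 5 alternatives, among them the fits without set-25 replicate 1, set-25 replicate 2 or F0 replicate 1 and, for F59D6.3, without F0 replicate 3, and B0205.13 was called without F0 replicate 1 (0.47, SE 0.17).

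Among repeats, the DNA transposon family MIRAGE1 was the only one of 159 tested families to reach the same level in both states at least 2-fold from the controls. Its copies together gave 105, 152 and 162 CPM in set-25 and 118, 114 and 123 CPM in F0, against 14.5, 17.2 and 21.7 CPM in the controls. Both states lay far above the controls, the mutants with the wider spread. The log2 fold change of set-25 over F0 was 0.23 (SE 0.19, interval -0.12 to 0.58, adjusted p 0.429), while set-25 was at 2.96 (SE 0.21) and F0 at 2.73 (SE 0.21) over control. The family was called in none of 15 alternatives, but whether it counted as same-level depended on the setting. Its interval reached beyond 1.5-fold in 8 of them. These were the fits without set-25 replicate 1 (0.40, SE 0.14), without F0 replicate 1 (0.23), 2 (0.21) or 3 (0.26), and with set-25 library 2 alone in its group (0.36, interval -0.01 to 0.73). With only the 6 libraries compared, with another scaling (RLE) and with ribosomal RNA genes removed, the fold change was 0.24 and the upper bound lay at 0.62, 0.59 and 0.59.

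The family total was carried by a few copies. Of its 62 copies, 15 had enough counts to be tested, and 7 of these were called higher in set-25 than in F0, where 6.63% of the 1146 copies tested were higher and 1.31% lower. Copies 7, 8, 45, 50, 51 and 52 were the most abundant and were at the same level in both states, as were 14.3% of all copies tested. Copy 51 was at 13.9, 21.3 and 23.3 CPM in set-25 and 17.5, 17.1 and 18.6 CPM in F0, against 0.332, 0.203 and 0.373 CPM in the controls (set-25 over F0 0.11, SE 0.17, interval -0.19 to 0.40). These copies carried fractional counts in all libraries, so reads were divided among them and their single values are not independent.

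Other MIRAGE1 copies behaved differently. Copy 62 was at 7.03, 6.92 and 5.85 CPM in set-25, at 3.54, 3.74 and 3.51 CPM in F0 and at 4.73, 5.53 and 6.34 CPM in the controls. Here set-25 lay above F0 in every library (0.91, SE 0.12, adjusted p 0.000122) and F0 below the controls. Copy 43 was near 0 in the controls, with 5 counts in all, and was at 1.22 to 1.91 CPM in set-25 and 0.396 to 0.502 CPM in F0 (adjusted p 0.00182). The family total was the sum of copies with equal and copies with unequal levels.

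The Mutator-like family CEMUDR1 also left the controls in both states, at 114, 136 and 136 CPM in set-25, 112, 107 and 115 CPM in F0 and 63.2 to 66.8 CPM in the controls. Its difference between set-25 and F0 was called yet lay inside 1.5-fold (0.21, SE 0.06, adjusted p 0.0137).

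**Figure D2:**
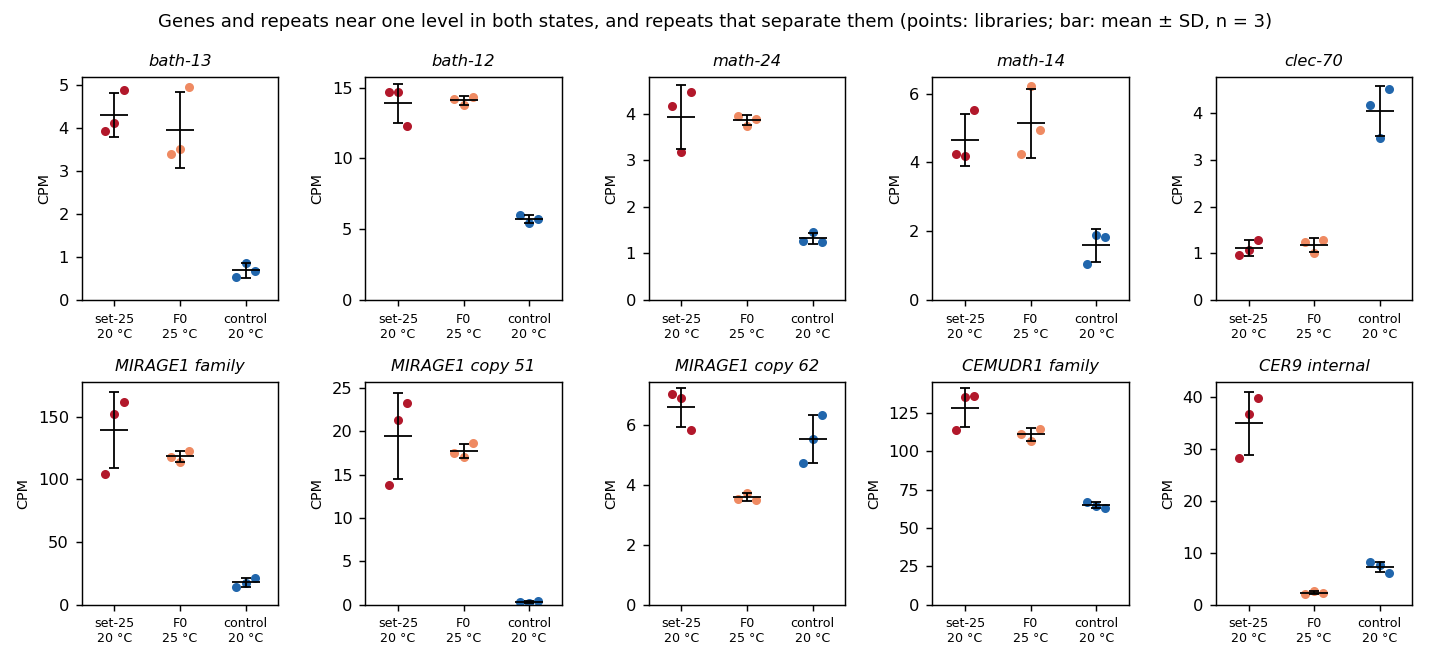
Level in CPM of genes and repeats in set-25 mutants, F0 wild type and controls, 3 libraries each (points) with mean ± SD (bars). In bath-13, bath-12, math-24, math-14, MIRAGE1 and its copy 51 the set-25 and F0 libraries share a level above the controls, in clec-70 below them, whereas MIRAGE1 copy 62 and the CER9 internal sequence separate the states.

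Families of the CER retrotransposons were called higher in set-25 more often than repeat families at large, and also lower more often. Of the 159 families, 30 were called higher in set-25 than in F0 (18.9%), 6 lower (3.77%) and 94 (59.1%) had the same level. With scaling factors taken from the repeats themselves the counts were 19 higher and 10 lower. Of the 32 CER families tested, a grouping made with the values known, 13 were higher (40.6%) and 3 lower (9.38%). Another 4 were at the same level (12.5%) and 12 showed neither. The 13 higher ones were mostly internal sequences, and the terminal repeats among them were those of CER3, CER9, CER12-1 and CER17. Most CER terminal repeats were not called. The 3 lower ones were internal sequences. The largest difference was that of the CER9 internal sequence, at 28.2, 36.7 and 40.0 CPM in set-25 and 2.09, 2.74 and 2.22 CPM in F0, against 8.17, 7.61 and 6.21 CPM in the controls. The mutants lay above and F0 below the controls (set-25 over F0 3.88, SE 0.16, adjusted p 1.12e-14; set-25 over control 2.24, SE 0.14; F0 over control -1.64, SE 0.17). All 10 tested copies of it were called higher in set-25. Several of these copies came in pairs with equal counts, so they share reads.

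CER1, an element with nearly all of its counts (99.78%) on a single copy, was at 350, 378 and 368 CPM in set-25, 140, 141 and 143 CPM in F0 and 345 to 368 CPM in the controls. Here the mutants stood with the controls and F0 stood apart (set-25 over F0 1.37, SE 0.06). The same held for the internal sequence of CER10, at 101, 107 and 84.8 CPM in set-25, 53.1, 59.6 and 49.7 CPM in F0 and 101 to 110 CPM in the controls. The terminal repeat of CER1 (LTRCER1), not counted among the CER families above, was also higher in set-25 than in F0 (0.47, SE 0.08). There the mutants lay below the controls, at 25.1 to 32.1 CPM in set-25, 21.0 to 22.7 CPM in F0 and 34.9 to 36.3 CPM in the controls. For the internal sequence of CER17 it was F0 that stood with the controls, at 24.1, 20.6 and 28.6 CPM in set-25, 12.3, 14.8 and 13.1 CPM in F0 and 10.9 to 13.3 CPM in the controls. LTRCER1 and the CER10 and CER17 internal sequences fell outside the rule for named families and were picked with their values known. The further families with the largest positive differences were Turmoil2 (1.69, SE 0.13), the CER12-1 terminal repeat (1.68, SE 0.32), the CER16 internal sequence (1.40, SE 0.24) and the CER17 terminal repeat (1.30, SE 0.30).

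Families lower in set-25 were fewer and mostly scarce. The best measured was the CER16-2 internal sequence, at 65.6, 65.1 and 54.0 CPM in set-25, 106, 98.8 and 108 CPM in F0 and 58.4 to 59.1 CPM in the controls, so that the mutants stood near the controls (set-25 over F0 -0.75, SE 0.09). Of its 8 copies tested, copies 1, 8 and 18 were lower and the scarce copies 12 and 13 higher, and copy 1 held 57.4% of the counts. The others were PAL8B, a palindromic repeat with 5 counts in set-25 and 52 in F0 (-2.43, SE 0.54), CeRep56 (-1.45, SE 0.29), the CER5 internal sequence (-1.36, SE 0.37), the CER7 internal sequence (-0.65, SE 0.16) and PAL5A (-0.20, SE 0.06). The call of the CER5 internal sequence was lost without set-25 replicate 2 (-0.97) and without F0 replicate 1 (-1.03). That of PAL5A was lost without set-25 replicate 1 or 3 and without F0 replicate 2 or 3. With set-25 library 2 alone in its group the calls of PAL5A (-0.14), PAL8B (-2.11), the CER7 internal sequence (-0.57) and the CER17 terminal repeat (0.82) were also lost.

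**Figure D3:**
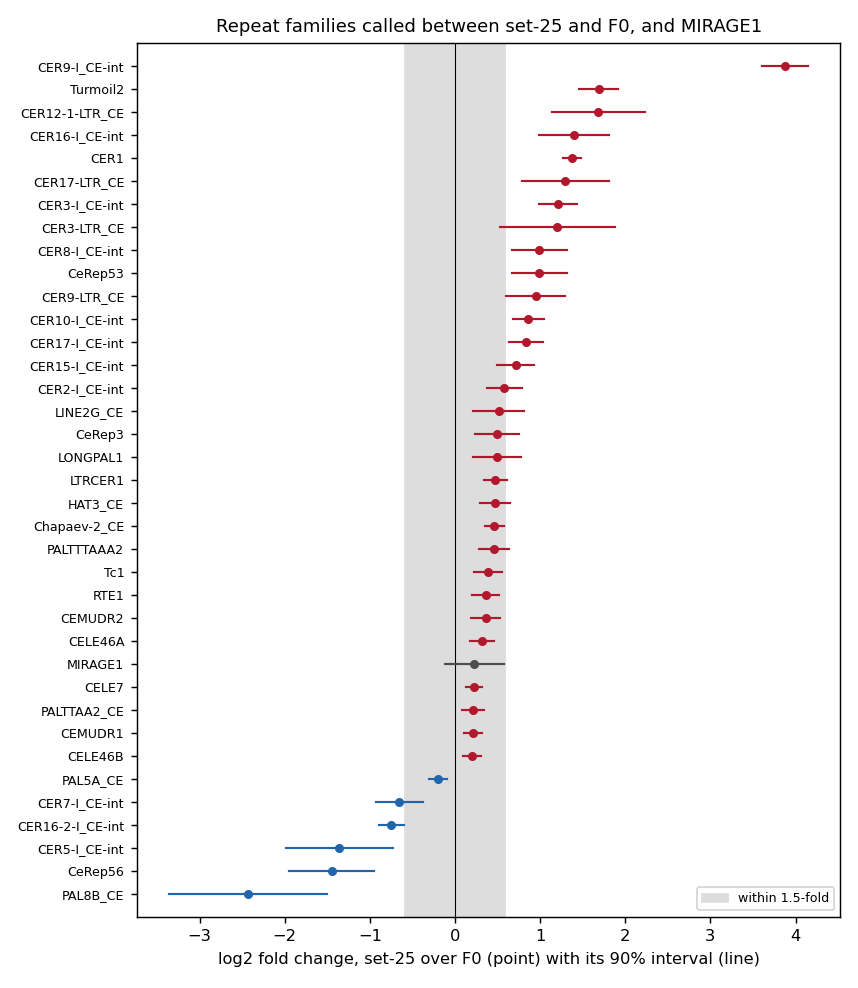
Log2 fold change of set-25 over F0 with its 90% interval for each repeat family called between the states and for MIRAGE1. The CER9 internal sequence lies furthest to the right (3.88), 6 families lie to the left, and the interval of MIRAGE1 lies inside the shaded 1.5-fold range.

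Lipid desaturation gave the largest difference upward among named protein-coding genes. Transcripts of fat-7, a stearoyl-CoA desaturase that adds the first double bond to fatty acids, were at 171, 157 and 218 CPM in set-25, 14.4, 9.82 and 10.8 CPM in F0 and 128 to 171 CPM in the controls. The mutants stood with the controls, and every F0 library lay far below (set-25 over F0 3.94, SE 0.19, adjusted p 8.11e-07; F0 over control -3.67, SE 0.19). The other desaturases of this step were not called. Transcripts of fat-6 averaged 200 ± 28.8 CPM in set-25 and 241 ± 26.2 CPM in F0 (SD, n = 3 each, adjusted p 0.0501), and those of fat-5 averaged 49.0 ± 5.6 CPM in set-25 and 43.1 ± 6.1 CPM in F0 (SD, n = 3 each). Desaturases that act later were lower in set-25: fat-2 at 398 to 475 CPM in set-25, against 616 to 720 CPM in F0 and 399 to 415 CPM in the controls (-0.63, SE 0.06), and fat-3 at 100 to 110 CPM in set-25 against 141 to 143 CPM in F0 (-0.43, SE 0.05). Over the 29 genes of this pathway and its regulators tested, 6 were higher, 7 lower and 24 at the same level (44.8% called, against 37.4% of all genes). The count of lower members was 4 without set-25 replicate 2.

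Lipases and acyl-CoA genes were called in both directions, 19 higher and 21 lower of 95 (42.1% called, against 37.4% of all genes). The acyl-CoA synthetase gene acs-3 was at 5.52 to 5.88 CPM in set-25, 10.1 to 10.3 CPM in F0 and 4.99 to 5.51 CPM in the controls (-0.84, SE 0.10). The synthetase gene acs-4 (0.33, SE 0.04) and dhs-6 (0.36, SE 0.04) were slightly higher. Among 20 sphingolipid genes, 4 were higher and 5 lower (45% called, against 37.4% of all genes). The acid ceramidase gene asah-1 was at 12.7, 14.3 and 10.2 CPM in set-25 and 52.2, 63.4 and 50.1 CPM in F0, with the controls (11.2 to 12.8 CPM) beside the mutants (-2.11, SE 0.12, adjusted p 3.45e-08). The acid sphingomyelinase gene asm-2 was lower too (-1.43, SE 0.13), and its relative asm-3 was at 0.145 to 0.246 CPM in set-25 and 2.91, 8.74 and 2.94 CPM in F0 (-4.71, SE 0.63). Of 20 inositol transporter and osmotic stress genes, 2 were higher and 7 lower (45% called), the higher ones 4 without F0 replicate 2. The transporter gene hmit-1.1 was at 0.289, 0.304 and 0.492 CPM in set-25, 9.59, 18.4 and 11.4 CPM in F0 and 0.374 to 0.743 CPM in the controls (-5.31, SE 0.46).

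Cytochrome P450 genes, which oxidise lipids and foreign compounds, tended upward in the mutants: 21 of 64 tested were higher (32.8%, against 17.0% of all genes) and 3 lower, with a median log2 fold change of 0.22. The count of higher members was 12 without set-25 replicate 2, and that of lower members 6 without F0 replicate 1. Transcripts of cyp-29A4 were at 7.49, 8.76 and 7.04 CPM in set-25, 1.28, 1.31 and 1.72 CPM in F0 and 3.79 to 5 CPM in the controls, so the controls lay between (2.45, SE 0.17). The genes cyp-13A5 (2.54, SE 0.27) and cyp-13A4 (2.28, SE 0.25) had the same order of group means. Glucuronosyltransferase and glutathione transferase genes, which conjugate such compounds, were higher in 12 and lower in 27 of 99 (39.4% called, against 37.4% of all genes). Among them ugt-64 was at 29.2, 31.2 and 30.5 CPM in set-25, 69.0, 67.8 and 66.7 CPM in F0 and 63.2 to 71.6 CPM in the controls, and here F0 stood with the controls (-1.16, SE 0.05). In gst-10 the mutants were the nearer group, with means of 14.3 CPM in set-25, 27.4 CPM in F0 and 11.9 CPM in the controls (-0.98, SE 0.10).

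Genes of intestinal defence and digestion were called both ways. Of 99 C-type lectin genes, 21 were higher, 27 lower and 26 at the same level (48.5% called, against 37.4% of all genes). The lectin gene clec-190 was at 14.4, 13.9 and 18.8 CPM in set-25, 2.4, 1.61 and 1.94 CPM in F0 and 5.23 to 6.79 CPM in the controls (2.95, SE 0.16), and clec-222 followed the same order (1.70, SE 0.08). In contrast clec-218 was at 12.2 to 12.9 CPM in set-25 and 27.7 to 30.6 CPM in F0, with the controls at 11.7 to 13.2 CPM (-1.22, SE 0.07). Of 68 lysozyme, saposin and antimicrobial peptide genes, 14 were higher and 21 lower (51.5% called). The lysozyme gene lys-4 was at 353, 372 and 361 CPM in set-25, 164, 165 and 158 CPM in F0 and 382 to 414 CPM in the controls (1.16, SE 0.05, adjusted p 3.43e-11), and the saposin-like gene spp-18 was lower in set-25 (-0.96, SE 0.08). Intestinal proteases were higher in 14 and lower in 3 of 31 (54.8% called). Among the higher ones were dpf-2, a dipeptidyl peptidase (0.85, SE 0.08), asp-6, an aspartyl protease (0.56, SE 0.05), and pept-1, which takes up peptides (0.56, SE 0.05).

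**Figure D4:**
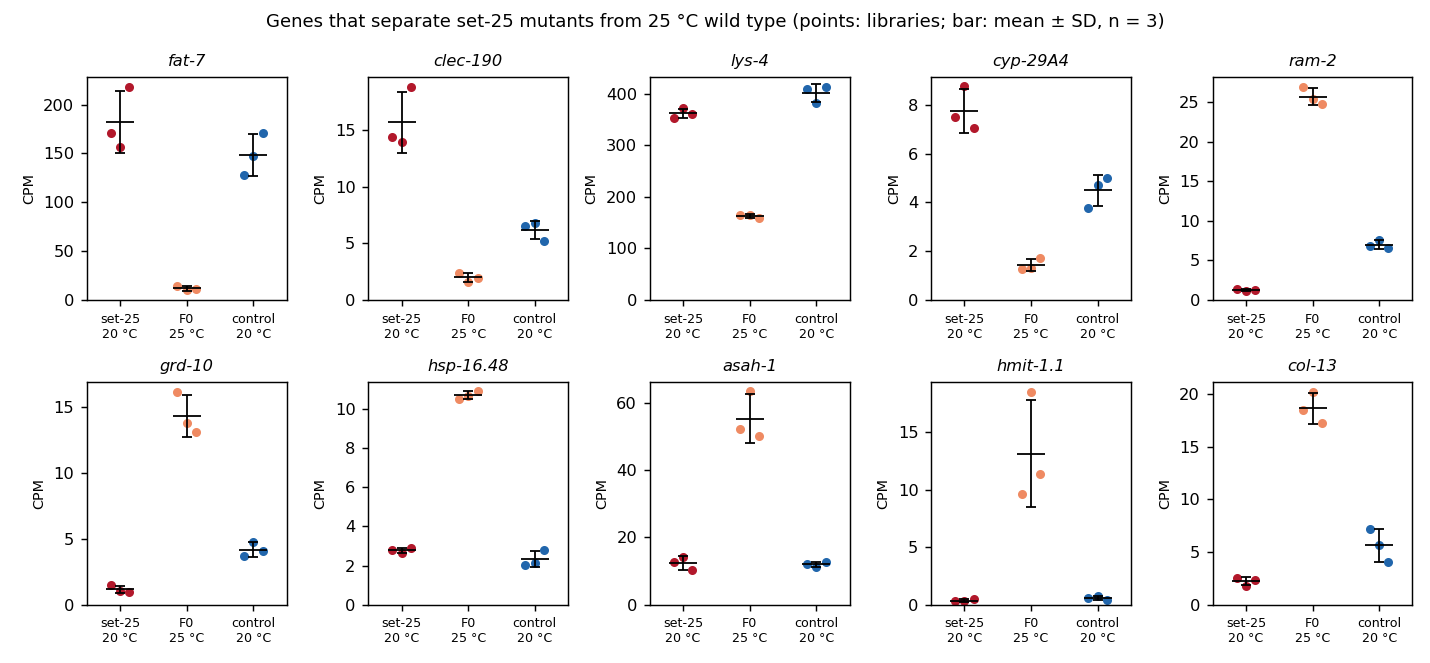
Level in CPM of 10 genes that separate the states, in set-25 mutants, F0 wild type and controls, 3 libraries each (points) with mean ± SD (bars). In fat-7 and lys-4 the mutants are near the controls and F0 is low, in hsp-16.48, asah-1 and hmit-1.1 the mutants are near the controls and F0 is high, and in clec-190, cyp-29A4, ram-2, grd-10 and col-13 the control mean lies between those of the states.

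The small heat shock chaperones, which hold unfolding proteins in solution, were mostly lower in the mutants. Of 14 tested, 9 were lower in set-25, 1 higher and 5 at the same level (71.4% called, against 37.4% of all genes). The pair hsp-16.48 and hsp-16.49 gave nearly equal counts and cannot be told apart: hsp-16.48 was at 2.8, 2.65 and 2.89 CPM in set-25, 10.5, 10.7 and 10.9 CPM in F0 and 2.04 to 2.8 CPM in the controls (-1.95, SE 0.13). The pair hsp-16.11 and hsp-16.1 behaved likewise (hsp-16.11 -1.46, SE 0.12). Of the set, hsp-16.41 was the furthest apart, at 0.0759 to 0.145 CPM in set-25 and 1.75 to 2.28 CPM in F0 (-4.19, SE 0.39), with 6 counts in set-25 and 212 in F0. It fell outside the naming rule and was picked for its size. In contrast sip-1, a small heat shock protein of oocytes and embryos, was at one level (971 to 980 CPM in set-25, 943 to 1020 CPM in F0, interval -0.10 to 0.09).

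Of 29 HSP70, HSP90 and co-chaperone genes, 2 were higher and 9 lower (37.9% called, against 37.4% of all genes). At the same level were 24 (82.8%), against 58.2% of all genes. The lower ones included the HSP70-family pair F44E5.5 and F44E5.4, which share nearly equal counts: F44E5.5 was at 2.34, 2.34 and 3.11 CPM in set-25 and 10.7, 10.7 and 11.4 CPM in F0, with the controls between at 4.51 to 5.38 CPM (-2.13, SE 0.14). The BAG-family cofactor gene unc-23 was also lower (-0.70, SE 0.09). The abundant constitutive chaperones were at one level, hsp-1 at 3078 to 3126 CPM in set-25 and 3004 to 3162 CPM in F0 and daf-21, the HSP90 gene, at 3549 to 3658 CPM in set-25 and 3723 to 3846 CPM in F0. Both were picked for their abundance with their values known. In the endoplasmic reticulum list 6 of 21 were higher, 2 lower (38.1% called) and 19 at the same level. The ubiquitin ligase gene sel-11 was at 0.29 (SE 0.05) and the disulfide isomerase gene pdi-3 at 0.21 (SE 0.05), while abu-13 was scarce, with 5 counts in set-25 and 63 in F0. The count of higher members there was 3 without set-25 replicate 1 or F0 replicate 3. In the mitochondrial list 4 of 19 were higher and 4 lower (42.1% called). Transcripts of hsp-6, the mitochondrial HSP70, were at 646 to 671 CPM in set-25, 443 to 471 CPM in F0 and 617 to 638 CPM in the controls (0.52, SE 0.05).

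Sperm transcripts were lower in the mutants nearly throughout. Of 35 major sperm protein genes tested, 33 were called lower (94.3%, against 20.4% of all genes), with a median log2 fold change of -2.76. Their summed level was 16.9, 33.6 and 82.1 CPM in set-25 and 285, 205 and 211 CPM in F0, against 48.7, 34.8 and 7.94 CPM in the controls, so that the range of the mutants overlapped that of the controls. Without set-25 replicate 2 the count called lower was 21, and with set-25 library 2 alone in its group it was 16. Copies of this family are nearly alike in sequence, which makes single values uncertain. Among 39 other sperm genes, 32 were lower and 2 higher (87.2% called, against 37.4% of all genes). Against the controls, 0 of them were higher and 1 lower in set-25, with a median of 0.04. In F0, 32 were higher than the controls and 0 lower, with a median of 2.87. The myosin gene spe-15 was at 6.91 to 7.53 CPM in set-25, 13.7 to 17.3 CPM in F0 and 8.03 to 9.08 CPM in the controls (-1.12, SE 0.12), spe-6 followed the same order (-1.12, SE 0.14), and ssp-16 had 2 counts in set-25 and 149 in F0 (ratio 0.0249, 95% counting interval 0.00299 to 0.0917).

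Cuticle collagens were likewise lower in the mutants: 87 of 124 tested were lower and 1 higher (71% called, against 37.4% of all genes). By at least 2-fold 62 were lower, and the median log2 fold change was -1.26. Against the controls, 38 were lower and 1 higher in set-25, while 53 were higher and 3 lower in F0. Transcripts of col-13 were at 2.55, 1.82 and 2.35 CPM in set-25, 18.4, 20.2 and 17.2 CPM in F0 and 4.07 to 7.18 CPM in the controls (-3.08, SE 0.18, adjusted p 2.7e-09). In col-147 (-2.25, SE 0.20) and col-180 (-3.43, SE 0.32) all set-25 libraries also lay below all F0 libraries.

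Of the 10 genes with the largest negative fold changes, 6 varied widely among the controls themselves. These were the collagen genes col-175, col-88, dpy-5, col-73 and col-161 and the roller gene rol-1, at 0 to 0.152 CPM in set-25 and 1.45 to 4.09 CPM in F0. For dpy-5, a collagen that shapes the body, set-25 held 2 counts and F0 346 (ratio 0.0107, 95% counting interval 0.0013 to 0.0391), but the controls were at 5.99, 2.3 and 0.156 CPM. For col-175, set-25 held 0 counts and F0 161, at least 28.9-fold lower against a floor of 3 counts over the group, with the controls at 2.65, 0.883 and 0.0623 CPM. The calls of these 6 genes were lost in 1 to 8 of 14 alternatives each, among them the fits without set-25 replicate 1 or 2 for all but col-161.

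Among 54 moulting and apical matrix genes, 18 were lower and 1 higher (35.2% called, against 37.4% of all genes). Transcripts of noah-2 were at 6.47, 6.11 and 9.77 CPM in set-25, 13, 15.9 and 17.6 CPM in F0 and 6.13 to 7.12 CPM in the controls (-1.15, SE 0.14). Hedgehog-related and patched-related genes, many of them expressed in the epidermis, were called in 27 of 46 (58.7%), 19 of these lower and 8 higher. The higher ones were 5 without set-25 replicate 1, set-25 replicate 2 or F0 replicate 2. The gene grd-10 was at 1.49, 1.02 and 0.985 CPM in set-25, 16.1, 13.8 and 13.1 CPM in F0 and 3.68 to 4.78 CPM in the controls (-3.58, SE 0.20), grd-13 had the same order (-2.18, SE 0.13), and the patched-related gene ptr-22 was higher (2.24, SE 0.34). A large difference with little spread was that of ram-2, a gene of the ray morphology class, at 1.33, 1.1 and 1.23 CPM in set-25, 26.8, 25.4 and 24.7 CPM in F0 and 6.58 to 7.59 CPM in the controls (-4.40, SE 0.15, adjusted p 1.39e-12). The mutants lay below and F0 above the controls in every library.

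Some markers of the moult and of sperm also lay lower in set-25, and others overlapped. The summed major sperm protein level was 16.9 to 82.1 CPM in set-25 and 205 to 285 CPM in F0. Of the sperm markers, gsp-3 was at 0.145 to 1.78 CPM in set-25 and 2.51 to 3.21 CPM in F0, while spe-9 overlapped at 0.114 to 0.246 CPM in set-25 and 0.104 to 0.265 CPM in F0. Of 3 moult markers, noah-1 was at 7.98 to 12.8 CPM in set-25 and 15.2 to 19 CPM in F0 and nas-37 at 15.6 to 17.4 CPM in set-25 and 20.7 to 23.8 CPM in F0, while mlt-10 overlapped at 2.09 to 3.18 CPM in set-25 and 2.28 to 2.31 CPM in F0. The adult collagen col-19 was at 894 to 1061 CPM in set-25 and 1391 to 1523 CPM in F0. The part of worm stage in these differences was not tested.

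Yolk and oocyte genes called between the states were mostly higher in the mutants, by small amounts. All 6 vitellogenin genes, which encode yolk proteins, were tested, and 5 were higher in set-25 (83.3%, against 17.0% of all genes). Transcripts of vit-4 were at 10164, 9729 and 9919 CPM in set-25, 5818, 5540 and 6186 CPM in F0 and 6946 to 7203 CPM in the controls (0.76, SE 0.07). Those of vit-3 (0.77, SE 0.07), vit-5 (0.75, SE 0.07) and vit-6 (0.61, SE 0.08) stood in the same order, vit-2 was at 0.24 (SE 0.09), a call lost without set-25 replicate 1 or 3 and without F0 replicate 1 or 2, and vit-1 was at the same level (0.07, SE 0.07, interval -0.06 to 0.19). Of 42 oocyte and eggshell genes 21 were higher and 3 lower (57.1% called, against 37.4% of all genes). Yet 39 (92.9%) had an interval inside 1.5-fold, against 58.2% of all genes. The zinc finger genes mex-6 (0.72, SE 0.05) and mex-5 (0.52, SE 0.05) and the kinase gene mbk-2 (0.51, SE 0.04), which act at the change from oocyte to embryo, were the best supported, with mex-6 at 306 to 316 CPM in set-25, 187 to 191 CPM in F0 and 215 to 224 CPM in the controls.

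Of 59 meiotic and germ cell regulators, 19 were higher, 7 lower and 33 not called (44.1% called, against 37.4% of all genes), with a median of 0.04. Named among them were daz-1, an RNA-binding protein gene of oogenesis, at 186 to 194 CPM in set-25, 116 to 121 CPM in F0 and 133 to 147 CPM in the controls (0.68, SE 0.04), and the poly(A) polymerase genes gld-4 (0.74, SE 0.06) and gld-2 (0.53, SE 0.05). Of 28 early embryonic sdz genes, 5 were lower (17.9%, against 20.4% of all genes), and the count was 2 to 3 without set-25 replicate 2, F0 replicate 1, F0 replicate 2 or F0 replicate 3. Among them sdz-6 was at 0.615 to 0.964 CPM in set-25, 1.8 to 1.98 CPM in F0 and 0.107 to 0.156 CPM in the controls, above control in both states and not at one level (-1.23, SE 0.27).

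Genes of H3K9 methylation and heterochromatin were mostly at one level: 48 of 54 (88.9%) had an interval inside 1.5-fold, 19 were called higher (9 with set-25 library 2 alone in its group) and 3 lower. The largest of the named differences was in cec-4, whose product anchors H3K9-methylated chromatin at the nuclear edge, at 38.6, 35.2 and 31.3 CPM in set-25, 54, 58.8 and 54.9 CPM in F0 and 36.6 to 38.3 CPM in the controls (-0.66, SE 0.06). The deacetylase gene hda-1 (0.37, SE 0.04) and the chromodomain gene cec-2 (0.58, SE 0.08) were higher. Argonaute and small RNA genes were at the same level in 46 of 50 (92%), with 21 higher and 5 lower. The share called was 52% here and 40.7% among the genes of H3K9 methylation. Of all genes, 58.2% were at the same level and 37.4% were called. The Piwi gene prg-2 was at 281 to 288 CPM in set-25, 190 to 211 CPM in F0 and 247 to 272 CPM in the controls (0.51, SE 0.05), and the helicase gene eri-6 at 19.8 to 21.3 CPM in set-25, 11.5 to 13.5 CPM in F0 and 20.1 to 22.3 CPM in the controls (0.75, SE 0.08). The nucleotidyltransferase gene mut-2 was slightly higher (0.40, SE 0.04). The count of lower members was 3 in each fit without set-25 replicate 1 or 3 or F0 replicate 1 or 3.

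Core machinery was close to one level in the states. All 32 proteasome genes tested, the regulator skn-1 included, lay inside the 1.5-fold interval, as did 78 of 82 ribosomal protein genes (95.1%) and 28 of 30 respiratory chain genes (93.3%). Of the 30 respiratory genes 24 were called lower in the mutants (80%, against 20.4% of all genes), with a median of -0.23. The complex I gene gas-1 was at 82.5 to 89.6 CPM in set-25, 129 to 136 CPM in F0 and 95.5 to 103 CPM in the controls (-0.62, SE 0.04), and the ATP synthase gene atp-3 was at 293 to 305 CPM in set-25 and 367 to 374 CPM in F0 (-0.31, SE 0.04). Ribosomal protein genes had 20 called lower (24.4%, against 20.4% of all genes). That count was 48 with only the 6 libraries compared and 6 to 13 in the 6 fits that each left out 1 library. Of 82 histone genes, 12 were higher and 25 lower (45.1% called, against 37.4% of all genes), and 62 were at the same level (75.6%). With only the 6 libraries compared the counts were 21 and 38. The core histone gene his-25 was at 142 to 149 CPM in set-25 and 208 to 220 CPM in F0, with the controls between at 186 to 191 CPM (-0.56, SE 0.05).

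**Figure D5:**
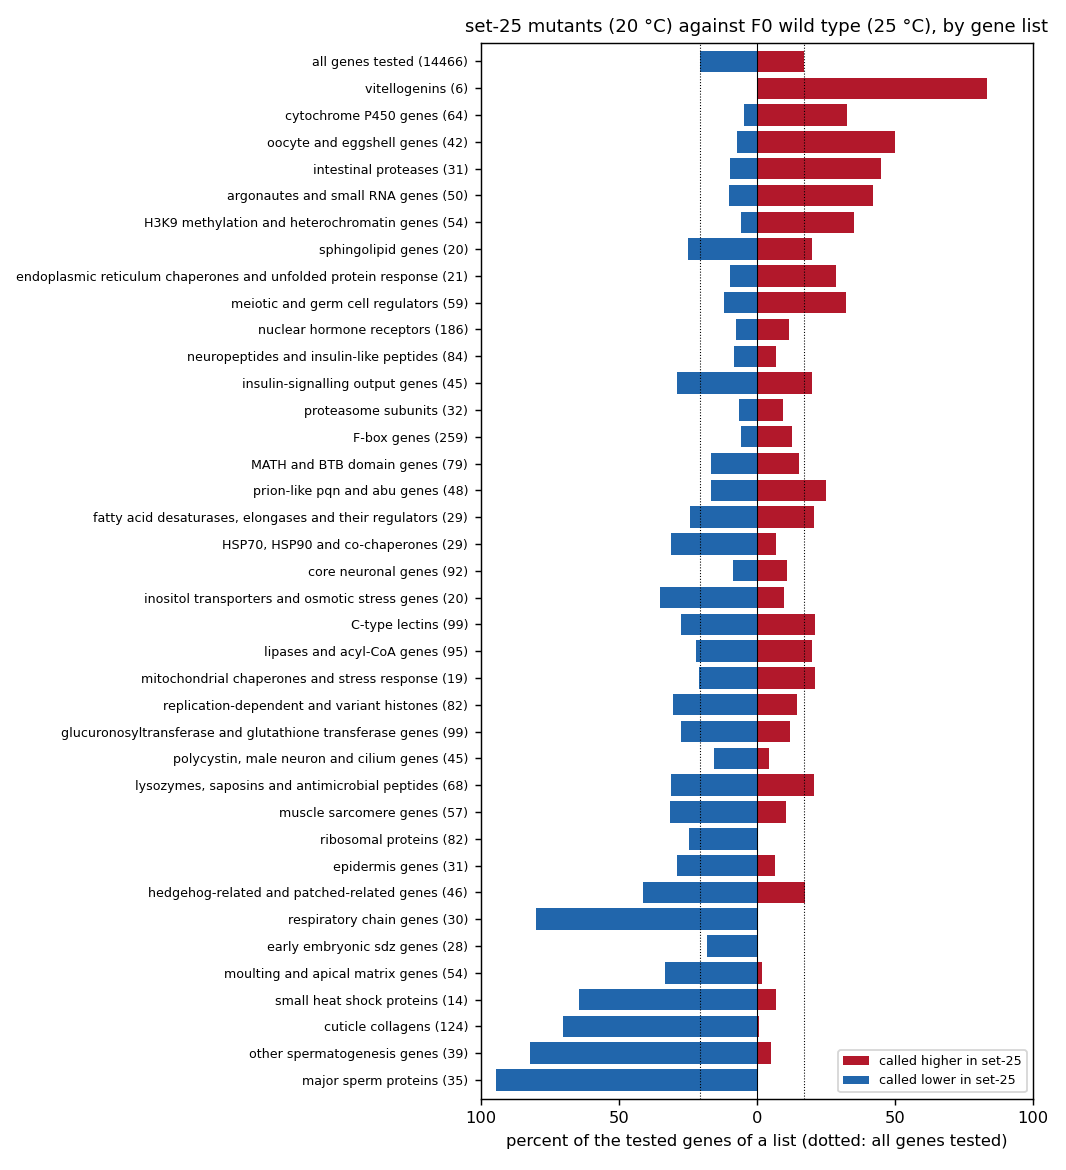
Percent of the tested genes of each of 38 lists called higher (right) or lower (left) in set-25 mutants than in F0 wild type, ordered by median fold change, with all 14466 genes at the top and as dotted lines. Sperm genes, cuticle collagens, small heat shock proteins and respiratory chain genes reach furthest to the left, and vitellogenins and oocyte genes furthest to the right.

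The polycystin gene lov-1, known for its role in male sensory neurons, was nearly absent from the mutants. It was at 0, 0.0379 and 0 CPM in set-25, a single count, and at 4.84, 5.65 and 5.06 CPM in F0, with the controls at 4.27 to 5.27 CPM (ratio of set-25 to F0 0.00349, 95% counting interval 8.825e-05 to 0.0195). Its partner in those neurons, pkd-2, and the male gene cwp-1 were at or below 0.123 CPM in all libraries, too low to be tested. In its list of 45 polycystin and cilium genes 7 were lower and 2 higher (20% called, against 37.4% of all genes), among the lower ones the Bardet-Biedl gene bbs-5, at 0.554 to 0.615 CPM in set-25, 1.64 to 1.68 CPM in F0 and 0.996 to 1.49 CPM in the controls (-1.47, SE 0.25).

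Single large differences stood in lists of signalling and tissue genes that were called more or less often than all genes (37.4%). Of 45 insulin-signalling output genes 9 were higher and 13 lower (48.9% called), the lower ones 8 without set-25 replicate 2. The gene daf-16, the FOXO factor of that pathway, was at 54.6 to 56.4 CPM in set-25, 31.5 to 34.9 CPM in F0 and 34.6 to 36.9 CPM in the controls (0.74, SE 0.05). Among 84 peptide genes, of which 6 were higher (3 without set-25 replicate 1) and 7 lower (4 without set-25 replicate 2; 15.5% called in all), the insulin-like gene ins-7 was at 0.602 to 1.05 CPM in set-25, 2.09 to 2.27 CPM in F0 and 0.407 to 0.96 CPM in the controls (-1.59, SE 0.31). Nuclear hormone receptors were called in 36 of 186 (19.4%, against 37.4% of all genes), with nhr-35 lower (-0.88, SE 0.11) and nhr-8 higher (0.76, SE 0.10), and 9 in place of 14 lower without set-25 replicate 2. F-box genes were called in 48 of 259 (18.5%), among them fbxa-192, at 13.7, 17.1 and 16.7 CPM in set-25, 6.38, 7.25 and 5.99 CPM in F0 and 10.2 to 11.3 CPM in the controls (1.27, SE 0.11). Among 57 muscle genes 18 were lower and 6 higher (42.1% called), the higher ones 2 without set-25 replicate 1. The troponin T gene mup-2 was at 160 to 203 CPM in set-25 and 288 to 315 CPM in F0 (-0.77, SE 0.08). Muscle markers went opposite ways. Transcripts of myo-3 were at 121.1 to 148.9 CPM in set-25 and 197 to 214.9 CPM in F0. Those of unc-54 were at 673.6 to 862.5 CPM in set-25 and 373.9 to 578.5 CPM in F0. Among 92 neuronal genes 8 were lower (5 without F0 replicate 1) and 10 higher (6 without set-25 replicate 1 or 2), 19.6% in all, with the synaptotagmin gene snt-2 at 8.41 to 11.7 CPM in set-25 and 20.6 to 22.3 CPM in F0 and the GTP cyclohydrolase gene cat-4 at 51.9 to 57.7 CPM in set-25 and 30 to 33.1 CPM in F0. Of 31 epidermis genes 9 were lower and 2 higher (35.5% called), and of 48 prion-like pqn and abu genes 12 were higher and 8 lower (41.7% called), the lower ones 5 without set-25 replicate 1.

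Read against the 20 °C controls, the mutants were on balance the nearer state. Of the 1258 genes called and at least 2-fold apart, the control mean was nearer to set-25 for 922 (73.3%) and nearer to F0 for 336. For the 985 genes lower in set-25 the control mean was nearer to set-25 in 784 (79.6%), and for the 273 higher genes the split was 138 near set-25 and 135 near F0. Nearer does not mean equal: for 791 of the 1258 genes the control mean lay between those of the states. This held for 577 of the lower and 214 of the higher genes. F0 and control share the N2 strain, so these counts describe the samples and carry no test. Over all 5404 called genes, small differences included, the counts were 3104 near set-25 and 2300 near F0.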

How the data were processed

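The authors deposited 1 table of expected counts (estimated counts that need not be whole) for 45836 genes and 53925 repeat copies in 12 libraries. The submitters' processing notes name DESeq2 1.8.1, featureCounts 1.5.1 and TopHat2 2.1.0 and give no role. The sources used here do not give the build, the annotation or how reads with several matches were shared. The table's values were 22.4% not whole, and were rounded. The 12 libraries entered 1 edgeR 4.0.16 fit in R 4.3.3 (TMM scaling, filterByExpr by group, robust quasi-likelihood), with the contrast set-25 minus F0, two-sided, Benjamini-Hochberg adjusted. CPM use TMM-scaled library sizes. Fold changes are log2 values with standard errors (SE). Repeat copies were summed over 179 families, leaving out 2 of ribosomal RNA, and tested on the library sizes and factors of the gene fit. The same level means a 90% interval inside 1.5-fold. Distance to control used log2(CPM + 0.1). DESeq2 1.42.0 was an alternative. Methods were tested on simulated data. There the interval lay inside 1.5-fold for 72.1% of unchanged genes and 20.1% of unchanged copies. A gene or copy outside it can thus be unchanged. Of features changed 2-fold, 69.7% of genes and 26.6% of copies were called in the right direction.

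Counting intervals (95%, exact) and floors (3 counts) cover counting error only. Genes named were, per direction, the 10 called with the largest fold change, a class name, non-overlapping groups and at least 50 counts on average in the group with more, up to 8 same-level genes at least 2-fold from control, up to 3 called members with the smallest p in each of 38 lists, set-25, met-2, and families by size of change. The ribosomal RNA genes rrn-1.1 and rrn-1.2 met that rule. Members and lists were chosen with earlier results of these data known. Equal replicate numbers did not pair the samples. Names matched an annotation for 45163 genes.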

Additional observations from a re-analysis of the deposited data

How the results depend on the processing

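None of the called genes and families named by rule changed direction under the alternatives run. Of the named genes that were not called, the fold changes of bath-12, bath-13, dhs-2, lips-14, math-24 and vit-1 lay on either side of 0. Both gene counts stayed within 1.5 times of 2452 higher and 2952 lower under all but 1 alternative. With set-25 library 2, the mutant library without raised ribosomal RNA, alone in its group, so that it is assumed to vary like the other groups, 1473 genes were higher and 1860 lower, 17 families higher and 3 lower, and 44 copies higher and 5 lower. That fit called 3333 genes, of which 3117 were also among the 5404. DESeq2 called 4904 genes, 4789 of them shared, and 6 copies lower. Leaving out 1 library at a time, 4172 to 5131 genes were called, 50 to 74 copies were higher and 7 to 12 lower. With scaling from the repeats themselves, 19 families were higher and 10 lower. With a bound of 1.2-fold 4170 genes were at the same level. Over all called genes, 3104 were nearer to set-25 and 2300 nearer to F0. The causes were not tested, except that fewer libraries enter the fits without 1 library.

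With the replicate number as a block 5095 genes were called, 5029 of them shared, and 8 copies lower. Deviations of same-numbered libraries correlated at -0.0638, 0.0293 and 0.00958, so the numbers name the samples and do not pair them. Depth limits set-25 most, with 10678819 counts in library 3.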

Other observations

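Some of the largest differences upward were in genes without a class name, chosen here after their values were seen. F07B7.2 and W09B7.2 had identical counts, and their reads cannot be told apart. Both were at 19.6, 24.7 and 25.8 CPM in set-25, 0.23, 0.424 and 0.248 CPM in F0 and 2.15 to 3.58 CPM in the controls (set-25 over F0 6.24, SE 0.22). Their neighbours by name, F07B7.1 and W09B7.1, also had identical counts and stood in the same order, at 4.43 to 8.86 CPM in set-25, 0.0349 to 0.169 CPM in F0 and 0.729 to 1.04 CPM in the controls. Y46G5A.29 was at 12.1, 19.6 and 13 CPM in set-25, 0.735, 0.641 and 0.527 CPM in F0 and 1.26 to 1.4 CPM in the controls (4.57, SE 0.20). Y37H2A.13 had 106 counts in set-25 and 1 each in F0 and in the controls.

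The noncoding F31C3.14 moved with the ribosomal RNA share of the mutant libraries. The ribosomal RNA genes rrn-1.1 and rrn-1.2 enter that share themselves, so that they follow it is no separate observation. Of the pair, rrn-1.1 was at 4426, 1057 and 17198 CPM in set-25 and 628 to 795 CPM in F0, with counts nearly equal to those of rrn-1.2. Transcripts of F31C3.14 were at 1504, 26.6 and 5793 CPM in set-25 and 4.13 to 10.3 CPM in F0, and the ribosomal RNA shares of set-25 libraries 1, 2 and 3 were 11.7, 4.01 and 26.3%. The calls of rrn-1.1 and rrn-1.2 were lost with set-25 library 2 alone in its group (log2 0.56), with only the 6 libraries compared and without F0 replicate 2.

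By class, protein-coding genes were at the same level in 60% of 13284 tested, annotated pseudogenes in 35.7% of 499 and small nucleolar RNAs in 12.8% of 86. By chromosome the share ran from 48.8% of 2732 genes on V to 68.9% of 2212 on III. The part of transcript level in these shares was not tested.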
